A study of Mus musculus with 10 samples.

Results

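Protein breakdown by the proteasome was followed at the transcript level through 61 genes: every gene whose symbol starts with Psma to Psmg and a digit, or with Ube2, in the part of the deposited table where symbols stand beside their own values, and that reached at least 1 TPM in at least 2 libraries. All 61 matching symbols passed that level, out of 20494 lines and 14578 tested genes, 7962 of them with a usable name, while 25 further matching symbols in the lower lines were not analysed here. The members were 37 proteasome genes, 22 genes of ubiquitin-conjugating enzymes (E2) and 2 genes matched by their names only. The RNA came from mouse embryonic stem cells, strain label C57BL6X129S6F1, described as a cell line, without a statement on whether it was 1 clone. SL cells grew in KO-DMEM with 15% FBS and LIF (1000 IU). The 4 other media were N2B27, a serum-free base, each with the same LIF dose and the GSK3 inhibitor Chir99021 at 3 µM. The further additions were the MEK inhibitor PD0325901 (1 µM) in 2iL and 2iL-F, the Src inhibitor CGP77675 (1.5 µM) in A2iL, and 2 µM each of agents written Dim and Mih in LCDM. Feeder cells were used in every condition except 2iL-F, per the labels. Each condition had 2 libraries, 10 in all.

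The 26S proteasome is the main ATP-dependent protease of the cytosol and nucleus. Its 20S barrel is built from alpha and beta rings, of which the beta subunits Psmb5, Psmb6 and Psmb7 carry the catalytic sites, and its 19S cap holds a ring of ATPases (Psmc) that unfold substrates and non-ATPases (Psmd) that bind and deubiquitinate them. Interferon induces alternative catalytic subunits (Psmb8 and Psmb10 among them), which form the immunoproteasome, and the PA28 activator (Psme1), and both shape the peptides shown on MHC class I. E2 enzymes receive ubiquitin, or a relative such as NEDD8 or ISG15, from an E1 enzyme and pass it on to substrates together with E3 ligases.

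Levels are in TPM, a read share per transcript length that sums to the same total in every library, so that genes can be set beside each other. Each change was estimated with limma on the log2(TPM + 1) scale from all 10 libraries and is given ± SE. The added 1 makes changes of weakly expressed genes look smaller than they are. A gene is said to have risen or fallen where its Benjamini-Hochberg adjusted p, over all 14578 tested genes, was below 0.05. The media comparisons against SL share the same 2 SL libraries. Since no label says whether a condition's libraries stem from different cultures, these p-values reflect a spread between libraries that may be technical. In every condition all 61 members lay within 1.5-fold between both libraries on the log2(TPM + 1) scale, the widest gap being 0.54 (log2) for Ube2w in 2iL. Of 9 embryonic stem cell markers, none was listed at 0 in both libraries of any condition. They summed to 2029 ± 53.7 TPM in SL, the lowest, 3261 ± 151 in 2iL and 2858 ± 6.11 in A2iL (SD, n = 2). In LCDM the sum was 3618 ± 35.5 TPM and in 2iL-F 3470 ± 56.3. The part of these differences in the member changes was not tested. Fibroblast markers, which stand for the usual feeder cells, went against the feeder labels: the 29 tested summed to 1015 ± 39.1 TPM in 2iL, labelled with feeders and with 5 of the 29 at 0 in both libraries, and to 5352 ± 143 in 2iL-F, labelled without. The sums were 6029 ± 192 in SL, 3394 ± 58.5 in A2iL and 1280 ± 11.7 in LCDM (n = 2 each). The names 2iL and 2iL-F below therefore mean the libraries with those labels.

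The constitutive 26S genes were most abundant in SL. Their 27 members summed to 5037 ± 54.2 TPM in SL, 4660 ± 16.9 in LCDM, 4372 ± 61.2 in A2iL, 4267 ± 46.7 in 2iL-F and 4082 ± 103 in 2iL (SD, n = 2). The 2iL sum was thus 18.96% below the SL sum and the LCDM sum 7.50% below it. The 19S ATPases lost the most in 2iL, with a sum 28.01% below SL. The 20S beta ring and the 19S non-ATPases lost the least, at 13.5% and 13.9%. By the median change of their members the non-ATPases changed less (-0.20) than the beta ring (-0.31). In bulk RNA, fewer cells of a type and less RNA per cell cannot be told apart.

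Counted gene by gene, more 26S members fell than rose in each serum-free medium, by less than 1 on the log2 scale each. In 2iL against SL, 37 of the 61 members fell and 6 rose, where 77.7% of all tested genes were called, 40.9% lower and 36.7% higher. Of the 27 constitutive 26S subunits 20 fell and 1 rose, with a median change of -0.35 against -0.04 over all tested genes. In 2iL-F against SL, 38 members fell and 3 rose, where 65.4% of all genes were called (37.3% lower, 28.1% higher). There 20 of the 27 constitutive subunits fell and the other 7 did not pass, with a median of -0.28 against -0.08.

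In A2iL against SL, 43 members fell and 2 rose, where 53.8% of all genes were called (31.9% lower, 21.9% higher). Of the 26S subunits 18 fell and the other 9 did not pass, with a median of -0.22 against -0.07. Fewer fell under other scalings, 11 after median-of-ratios scaling and 10 after quantile normalisation, and 12 without SL replicate 3 or A2iL replicate 3. The members that rose numbered 4 under both scalings and 1 without SL replicate 3 or either A2iL library. In LCDM against SL, 27 members fell and 9 rose, where 65.9% of all genes were called (33.7% lower, 32.2% higher). The count in LCDM was the nearest to its background of the 4. Of the 26S subunits 13 fell and 2 rose, with a median of -0.13 against a median of -0.00 over all genes. There 7 fell without SL replicate 3 and 8 without either LCDM library, and the 2 rises were lost without any one of these 3 or SL replicate 5.

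**Figure D1:**
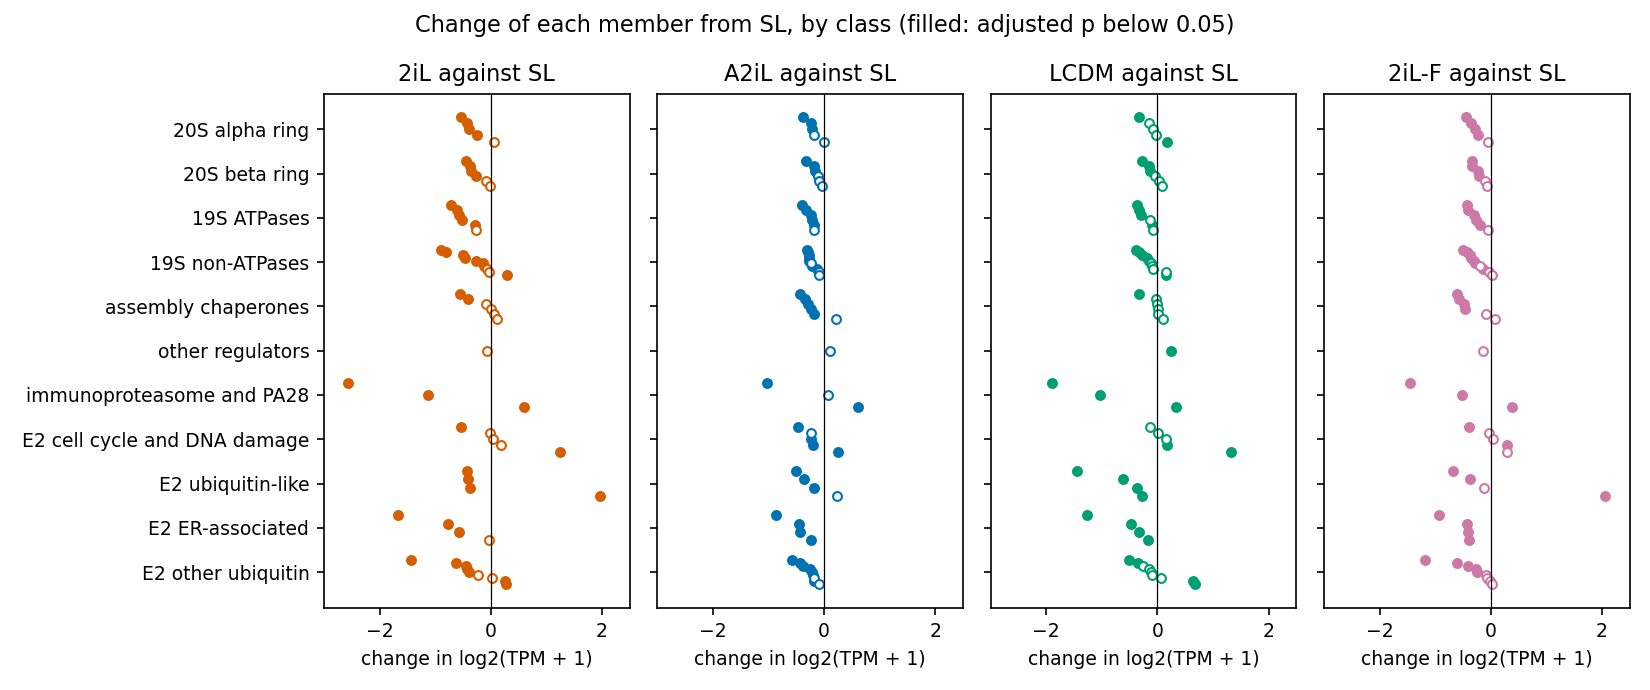
Change of each member from SL on the log2(TPM + 1) scale (x axis), by class (rows), in 4 panels for 2iL, A2iL, LCDM and 2iL-F. Each point is 1 gene, filled where the adjusted p was below 0.05. The 2 genes matched by name only are not plotted. The 26S classes sit mostly left of 0, the leftmost point of all panels is Psmb8 in 2iL (listed at 0 there), and the rightmost is Ube2l6 in 2iL-F, at 2.05.

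The libraries themselves showed the same order. In 31 of the 61 members both SL libraries lay above all 8 others, which held for 24.8% of all tested genes. In 2 members, Psme1 and Ube2t, both lay below all others, against 18% of all genes. All 6 ATPase genes were among the 31, and so were 4 of the 5 alpha subunits.

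The ATPases Psmc1 to Psmc6 form the ring that pulls substrates into the barrel. Psmc4 (chromosome 7, 28041707 to 28050101 of mm10) had 222 and 221 TPM in SL, 126 and 146 in 2iL, 171 and 163 in 2iL-F, 172 and 181 in A2iL and 176 and 169 in LCDM. Both SL libraries were higher than every other library and both 2iL libraries lower than every other. The changes from SL were -0.71 ± 0.07, adjusted p = 1.45e-05 in 2iL, -0.41 ± 0.07 in 2iL-F, -0.33 ± 0.07 in A2iL and -0.36 ± 0.07 in LCDM, all 4 past the threshold.

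Psmc2 (chromosome 5, 21785283 to 21803787) was at 79.5 and 78.2 TPM in SL, 51.8 and 51.1 in 2iL, 65.2 and 65.3 in 2iL-F, 70.1 and 68.4 in A2iL and 60.9 and 64.4 in LCDM. Its SL libraries again stood above the rest and its 2iL libraries below. It changed by -0.61 ± 0.04, adjusted p = 2.29e-06 in 2iL and by -0.33 ± 0.04 in LCDM, and by -0.19 ± 0.04 in A2iL, a call lost after median-of-ratios or quantile scaling and without A2iL replicate 5 (-0.17).

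Psmc1 (chromosome 12, 100110154 to 100123405) and Psmc3 (chromosome 2, 91054009 to 91066369) fell by 0.57 and 0.51 on the log2 scale in 2iL. In 2iL-F, Psmc1 had 254 and 252 TPM against 341 and 342 in SL (-0.43 ± 0.06) and Psmc3 had 174 and 169.6 against 175 and 179, a change of -0.04 ± 0.04 that did not pass. Exons of Psmc3 overlap those of Slc39a13, and whether the counting used strand is not given in the sources used here. Psmc6 did not pass the test of any difference among the 5 conditions, for which 56 of 61 members passed, against 90.1% of all genes; the other 4 that did not were Psma4, Psmb1, Ube2w and Psmd10. Its fall in 2iL-F alone (-0.30 ± 0.11) was lost in several alternatives.

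Among the 10 non-ATPase subunits of the cap, 7 fell and 1 rose in 2iL, where 40.9% of all tested genes fell and 36.7% rose. Their median change was -0.20. Psmd6, a subunit of the 19S lid, was the 26S gene with the widest range across conditions (chromosome 14, 14112174 to 14120984), at 90.5 and 97.2 TPM in SL, 46.1 and 54 in 2iL, 70.7 and 76.3 in 2iL-F, 92 and 85 in A2iL and 71.7 and 71.3 in LCDM. The 2iL libraries lay apart below all others, and the A2iL libraries overlapped those of SL. It fell in 2iL (-0.90 ± 0.08, adjusted p = 9.83e-06), a ratio of mean TPM of 0.533, and changed by -0.39 ± 0.08 in LCDM, -0.35 ± 0.08 in 2iL-F and -0.08 ± 0.08 in A2iL, the last not passing.

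Psmd14, the lid deubiquitinase that removes ubiquitin chains from substrates (chromosome 2, 61711694 to 61800376), had 102 and 93.6 TPM in SL, 49 and 62.4 in 2iL, 65.4 and 71.6 in 2iL-F, 79.4 and 86.3 in A2iL and 80.5 and 74.5 in LCDM. SL was highest, and its lower library was above all 8 others. The change was -0.81 ± 0.11, adjusted p = 1.36e-04 in 2iL and -0.50 ± 0.11 in 2iL-F; in LCDM it was -0.33 ± 0.11, a call lost without SL replicate 3 or without LCDM replicate 5 (-0.27 in both). Psmd12, another lid subunit (chromosome 11, 107479484 to 107504362), had 135 ± 0.208 TPM in SL and between 97.5 ± 9.15 in 2iL and 112 ± 0.508 in A2iL elsewhere (SD, n = 2), and fell in all 4 media, by 0.47 in 2iL and 0.27 in A2iL.

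Psmd3, also of the lid, went the other way (chromosome 11, 98682554 to 98695979). It had 133 and 131 TPM in SL, 169.6 and 155 in 2iL, 141 and 129 in 2iL-F, 111 and 116 in A2iL and 146 and 150.3 in LCDM. Both 2iL libraries were the highest of the 10 and both A2iL libraries the lowest. It rose by 0.30 ± 0.06, adjusted p = 0.00167 in 2iL, and LCDM was above A2iL by 0.38 ± 0.06, adjusted p = 8.20e-04. Its changes from SL of 0.16 ± 0.06 in LCDM and -0.21 ± 0.06 in A2iL were lost in some alternatives, among them the fits without SL replicate 3 (0.18 and -0.20). Psmd1, a scaffold of the cap's base (chromosome 1, 86064387 to 86139151), changed by -0.49 ± 0.06 in 2iL and -0.28 ± 0.06 in 2iL-F, and its exons overlap those of Gm21972. Psmd2, the other scaffold there, had the narrowest range of condition means among the cap genes (0.14 on the log2 scale), with values from 226 to 251 TPM over all 10 libraries.

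**Figure D2:**
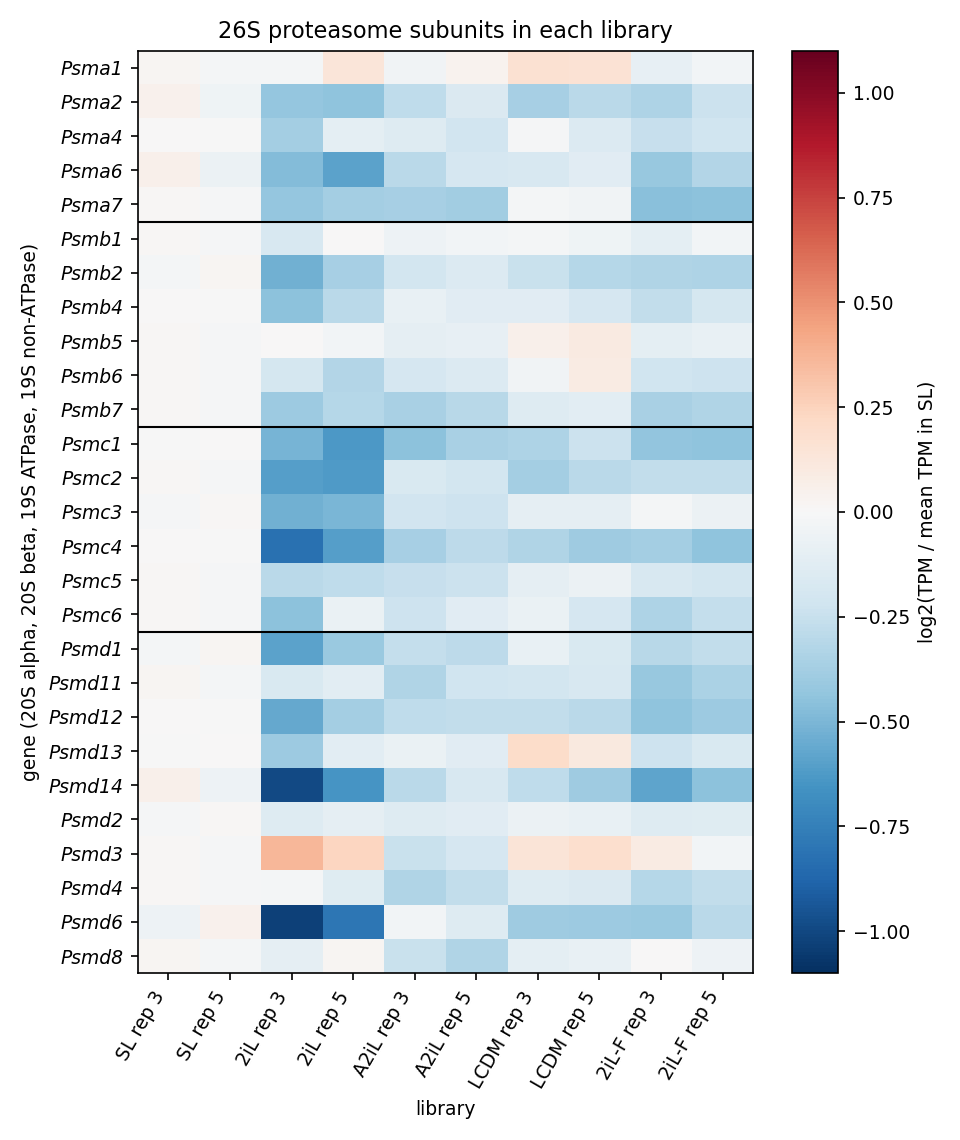
Level of each of the 27 constitutive 26S genes (rows, ordered by class) in each of the 10 libraries (columns), as log2 of TPM over the gene's mean in SL; blue is below and red above SL. Both columns of 2iL are darkest for Psmd6 and Psmd14, and Psmd3 is the one row that is red in both.

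In the 20S barrel, Psma6 of the alpha ring (chromosome 12, 55384222 to 55418454) was the most abundant member in SL among the 26S genes and had 427 and 393 TPM in SL, 294 and 272 in 2iL, 308 and 328 in 2iL-F, 334 and 359.6 in A2iL and 363 and 376 in LCDM. SL lay above and 2iL below all other libraries. It changed by -0.53 ± 0.06, adjusted p = 6.97e-05 in 2iL and by -0.36 ± 0.06 in 2iL-F; the change of -0.24 ± 0.06 in A2iL was lost after either rescaling and without SL replicate 3 (-0.18) or A2iL replicate 3 (-0.19). Psma2 (chromosome 13, 14613240 to 14674236) changed by -0.43 ± 0.06 in 2iL and -0.33 ± 0.06 in LCDM. Psma7 (chromosome 2, 180036374 to 180042433) fell in 2iL, A2iL and 2iL-F, with -0.40 ± 0.04, -0.37 ± 0.04 and -0.45 ± 0.04, but had 148 and 146 TPM in LCDM against 151 and 148 in SL (-0.03 ± 0.04, not passing). Psma1 (chromosome 7, 114264606 to 114276118) was at 106 to 126 TPM in all 10 libraries and had its highest values in LCDM, with 126 and 126.

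The 3 catalytic beta subunits differed in which changes passed. Psmb5, the chymotrypsin-like site (chromosome 14, 54614119 to 54618022), had 378 and 373 TPM in SL, 376 and 369 in 2iL, 349 and 354 in 2iL-F, 351 and 353 in A2iL and 389.7 and 403 in LCDM. Its 4 changes from SL ranged from -0.10 ± 0.04 in 2iL-F to 0.08 ± 0.04 in LCDM and none passed. Psmb6, the caspase-like site (chromosome 11, 70525367 to 70527858), had 271 and 268 TPM in SL, 236 and 215 in 2iL, 232 and 231 in 2iL-F, 238 and 243 in A2iL and 262 and 287 in LCDM. SL and LCDM overlapped and the other media lay below them. It fell in 2iL (-0.26 ± 0.06, adjusted p = 0.00296).

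Psmb7, the trypsin-like site (chromosome 2, 38588036 to 38644087), had 159 and 155 TPM in SL, 119 and 126 in 2iL, 123 and 125 in 2iL-F, 123 and 127 in A2iL and 143 and 145 in LCDM. The SL libraries were the highest, LCDM came next, and the other 3 media overlapped. It changed by -0.35 ± 0.04, adjusted p = 8.51e-05 in 2iL, -0.33 ± 0.04 in A2iL and -0.34 ± 0.04 in 2iL-F; in LCDM the change was -0.13 ± 0.04, lost without either SL library (-0.11 and -0.14) or either LCDM library (-0.12 and -0.14). Exons of Psmb7 overlap those of Nek6. Of the non-catalytic beta subunits, Psmb2 (chromosome 4, 126677630 to 126709714) had 187 and 191 TPM in SL, 131 and 147 in 2iL, 151 and 149 in 2iL-F, 164 and 171 in A2iL and 159 and 152 in LCDM. SL was highest, and it changed by -0.44 ± 0.06, adjusted p = 1.18e-04 in 2iL and -0.33 ± 0.06 in 2iL-F. Psmb4 (chromosome 3, 94884093 to 94886961) changed by -0.37 ± 0.06 in 2iL, with 207 and 231 TPM against 284 and 283 in SL. Psmb1, the most constant of them, had 284 to 324 TPM over the 10 libraries with no change past the threshold in any of the 6 pairwise comparisons.

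Of 6 chaperones that assemble the particle, 5 fell in A2iL, 4 in 2iL-F, 2 in 2iL and 1 in LCDM, and the others did not pass. The shares of all tested genes that fell were 31.9%, 37.3%, 40.9% and 33.7%, and the differences between media in these counts were not tested. In A2iL 2 fell without SL replicate 5 or either A2iL library. Psmg2, which with Psmg1 guides alpha ring assembly, had 77.3 and 74.5 TPM in SL, 54.4 and 60.2 in 2iL, 50.7 and 51.1 in 2iL-F, 53.7 and 57.6 in A2iL and 76.8 and 72.8 in LCDM. SL and LCDM overlapped at the top and the other 3 media lay lower. Psmg3 (chromosome 5, 139823592 to 139826885) was lowest in 2iL-F, with 8.40 and 8.18 TPM against 12.2 and 15.5 in 2iL, a difference of -0.67 ± 0.10, adjusted p = 4.25e-04. Its exons overlap those of Gm26938. Psmd5, a chaperone of the 19S base (chromosome 2, 34849734 to 34874968), had 22.6 and 20.6 TPM in SL, 20.1 and 20.6 in 2iL, 14.8 and 16.1 in 2iL-F, 17 and 16.7 in A2iL and 23.9 and 22.3 in LCDM. A2iL and 2iL-F lay below the other 3 conditions without overlap, with changes of -0.34 ± 0.07, adjusted p = 0.00279 and -0.46 ± 0.07. Psmd9, another base chaperone (chromosome 5, 123169413 to 123250131), changed by -0.55 ± 0.07 in 2iL and -0.32 ± 0.07 in LCDM. Psmf1, which encodes an inhibitor of the 20S barrel (chromosome 2, 151715812 to 151744186), was highest in LCDM, with 14.2 and 14.1 TPM against 11.5 and 11.8 in SL (0.25 ± 0.06, adjusted p = 0.00631).

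Genes around the proteasome were read from lists chosen for this purpose. Of all tested genes, 40.9% fell and 36.7% rose in 2iL, and 31.9% and 21.9% in A2iL. The shares were 33.7% and 32.2% in LCDM, and 37.3% and 28.1% in 2iL-F. Of 13 tested proteasome-associated genes, 9 fell and 3 rose in 2iL, and 6 fell and 1 rose in A2iL. In LCDM 5 fell, near the share of all genes, and 2 rose, and in 2iL-F 8 fell and 2 rose. The rises numbered 1 in 2iL without SL replicate 3, were lost in A2iL without SL replicate 3 or A2iL replicate 5, and numbered 1 in LCDM without any single library of SL, A2iL or 2iL-F or LCDM replicate 3; 5 fell in 2iL-F without 2iL-F replicate 5. Uchl5, a deubiquitinase of the cap, had 54.2 and 52.8 TPM in SL, 34.1 and 34.3 in 2iL, 29.6 and 29.8 in 2iL-F, 45 and 42.3 in A2iL and 44.5 and 47.4 in LCDM. It was highest in SL and lowest in 2iL-F, without overlap. Vcp, the ATPase that extracts ubiquitinated proteins from complexes and membranes, had 259 and 269.9 TPM in SL, 151 and 180.4 in 2iL, 205 and 206 in 2iL-F, 218 and 213 in A2iL and 225 and 218 in LCDM. SL was highest and 2iL lowest, with a change of -0.68 ± 0.07. Ufd1, an adaptor of Vcp, fell in 2iL (-0.71 ± 0.08) and LCDM (-0.44 ± 0.08) and had 21.9 and 22.8 TPM in 2iL-F against 22.8 and 23.3 in SL.

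Promoters are shown for 26S genes because 20 of the 27 fell in 2iL, where 40.9% of all tested genes fell. A RefSeq sequence of 250 bases before the transcription start (GRCm38.p6) matched 49 of the 61 members and 22 of the 27 constitutive 26S genes, and 12 short motifs were searched on both strands. The core of antioxidant response elements, TGACNNNGC, lay in 4 of the 22 (18.18%), against 14.34% of 6269 tested named genes with a sequence. The ETS-type core CCGGAAG lay in 9 of the 22 (40.91%), against 15.78% of those genes and 7.83% of 27025 genes in the RefSeq table. Stretches with a match are given 5′ to 3′ on the gene's strand, with the match in capitals. They are Psmb5 (chr14:54618023-54618067, minus strand), Psmb6 (chr11:70525323-70525356, plus), Psmc2 (chr5:21785166-21785222, plus) and Psmd11 (chr11:80428579-80428614, plus). For the last pair, 26S genes with a CCGGAAG match were taken by their range of condition means, widest first. Psmc2 and Psmd11 were the first whose match lay ahead of both annotated starts, so their choice followed the values. In them the capitals read CTTCCGG, the reverse complement of CCGGAAG.

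Psmb5: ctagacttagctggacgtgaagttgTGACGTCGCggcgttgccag
Psmb6: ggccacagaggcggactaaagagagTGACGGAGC
Psmc2: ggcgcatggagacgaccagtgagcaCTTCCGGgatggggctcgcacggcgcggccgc
Psmd11: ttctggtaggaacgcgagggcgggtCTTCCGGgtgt

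Psmb5 and Psmb6 both hold TGACNNNGC and differed in their calls in 2iL, with changes of -0.01 ± 0.04, not passing, and -0.26 ± 0.06. Psmc2 and Psmd11 both hold CCGGAAG and both fell in all 4 media against SL. Psmd11 (chromosome 11, 80428615 to 80473248), a lid subunit, changed by -0.27 ± 0.05 in A2iL and -0.37 ± 0.05 in 2iL-F. The other searches gave, for the 22 and for the named tested genes, 36.36% and 42.32% for TGANNNNGC (which includes every TGACNNNGC), 36.36% and 40.15% for CCAAT, 18.18% and 22.03% for GATTGG (which holds a CCAAT on the other strand), 63.64% and 66.15% for GGGCGG, 4.55% and 10.42% for CACGTG, 4.55% and 12.28% for TTTGAA, and 4.55% and 2.78% for the interferon-response core (GAAA, 2 further bases, GAAA). The 3 further spellings, GCGCGAAA, TGACGTCA and TGACGCAA, were in 0 of the 22 and in 0.61%, 2.98% and 0.85% of the named tested genes. A match is a stretch of letters, not a site shown to be bound.

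The interferon-linked proteasome genes had patterns unlike one another. Psmb8, the interferon-induced replacement of Psmb5 (chromosome 17, 34197721 to 34201454), had 5.11 and 4.78 TPM in SL, 0 and 0 in 2iL, 3.56 and 2.81 in 2iL-F, 4.94 and 5.61 in A2iL and 0.426 and 0.806 in LCDM. It is listed at 0 in both 2iL libraries, was under 1 TPM in both LCDM libraries, and overlapped between SL and A2iL. It fell in 2iL, where no fold is given against a value of 0 (adjusted p = 3.18e-07), and changed by -1.89 ± 0.14, adjusted p = 4.50e-06 in LCDM and by 0.08 ± 0.14 in A2iL, the last not passing. In 2iL-F the change of -0.51 ± 0.14 was lost with a pseudocount of 0.1 (-0.63), without SL replicate 3 (-0.47) and without 2iL-F replicate 5 (-0.38). As a share of Psmb5, Psmb8 was 1.28% to 1.59% in the SL and A2iL libraries, 0.793% and 1.02% in 2iL-F and 0.109% and 0.200% in LCDM.

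Psmb10, which replaces Psmb7 (chromosome 8, 105935735 to 105938444), had a different pattern, with 48.3 and 44.8 TPM in SL, 21.2 and 20.05 in 2iL, 16.3 and 16.6 in 2iL-F, 22.7 and 22.1 in A2iL and 20.2 and 24.4 in LCDM. The SL libraries lay well above all others, which ranged from 16.3 to 24.4 TPM. It fell in all 4 media, with changes of -1.14 ± 0.08, adjusted p = 2.59e-06 in 2iL, -1.44 ± 0.08 in 2iL-F, -1.02 ± 0.08 in A2iL and -1.03 ± 0.08 in LCDM. Against Psmb7 it stood at 28.8% and 30.4% in SL and at 13.3% to 18.4% in the other libraries.

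Psme1, a subunit of the PA28 activator (chromosome 14, 55578123 to 55581529), rose in all 4 media. It had 50.5 and 51.8 TPM in SL, 76.2 and 78.9 in 2iL, 64.7 and 68.8 in 2iL-F, 78.2 and 78.6 in A2iL and 66.4 and 63.6 in LCDM, the SL libraries being the lowest of the 10. The changes were 0.59 ± 0.05, adjusted p = 5.07e-06 in 2iL, 0.38 ± 0.05 in 2iL-F, 0.61 ± 0.05 in A2iL and 0.34 ± 0.05 in LCDM. Exons of Psme1 overlap those of Emc9, whose reads cannot be told apart from it where strand was not used. Over the 3 genes the sum was 103 ± 1.85 TPM in SL and 98.1 ± 1.11 in 2iL, Psme1 being the most abundant of them.

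Ube2l6, the E2 that transfers the interferon-induced modifier ISG15 (chromosome 2, 84798828 to 84810335), had the widest range of condition means among the members on the log2(TPM + 1) scale, 3.49 (log2); the order depends on the added constant, since Psmb8 is listed at 0 in 2iL. It stood at 5.81 and 5.06 TPM in SL, 22.2 and 26 in 2iL, 26.3 and 24.8 in 2iL-F, 6.89 and 6.27 in A2iL and 1.02 and 1.77 in LCDM. The 4 libraries of the media with PD0325901 were at 22.2 TPM or more and the other 6 at 6.89 or less, with both LCDM libraries lowest and SL and A2iL close to each other without overlap. The changes from SL were 1.96 ± 0.15, adjusted p = 2.71e-06 in 2iL, 2.05 ± 0.15, adjusted p = 4.01e-06 in 2iL-F and -1.44 ± 0.15, adjusted p = 3.55e-05 in LCDM, and 0.24 ± 0.15 in A2iL, which did not pass. Between LCDM and A2iL the difference was -1.68 ± 0.15, adjusted p = 2.62e-05.

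**Figure D3:**
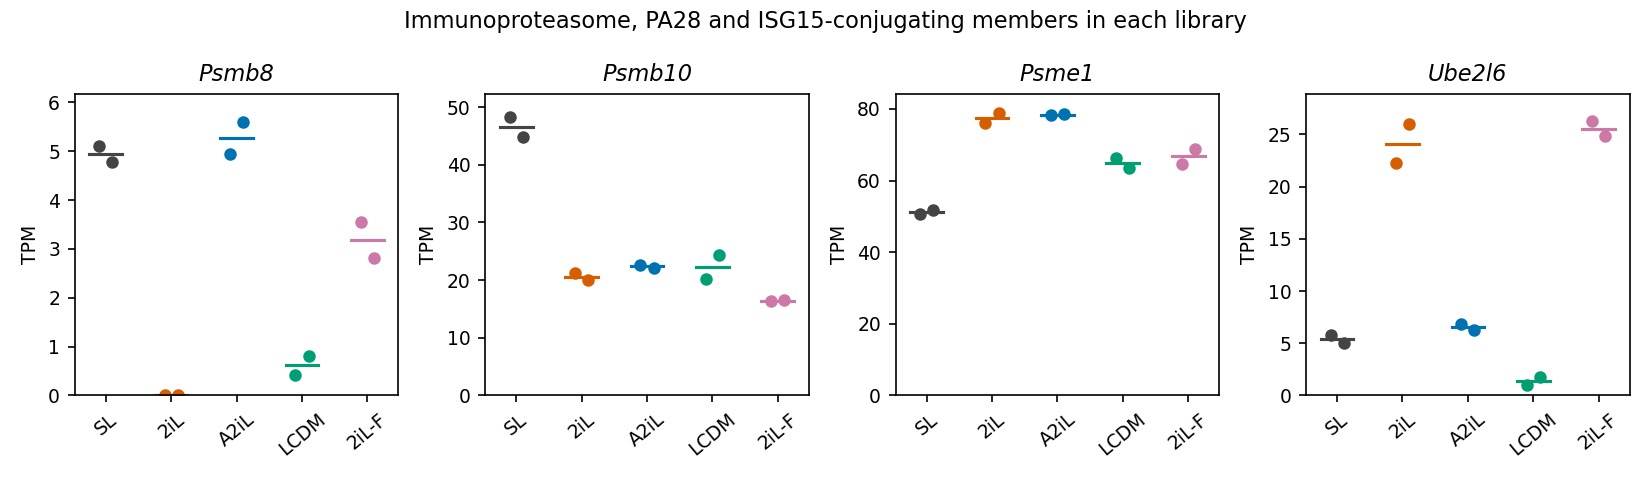
TPM (y axis, from 0) of Psmb8, Psmb10, Psme1 and Ube2l6 in each library, by condition (x axis); points are libraries and bars the mean of 2. Psmb8 is at 0 in both 2iL libraries while Ube2l6 there is at 22.2 and 26, and Psmb10 is at 44.8 or more in SL only.

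The stretch directly ahead of the Ube2l6 start (chr2:84798698-84798827, plus strand, RefSeq GRCm38.p6) is shown because this gene was high in 2iL, where Psmb8 was listed at 0. The interferon-response core (GAAA, 2 further bases, GAAA) was not found in the 250 bases searched, nor in the windows of Psmb8, Psmb10 and Psme1, whose RefSeq starts differ from those of GENCODE and which are not shown. It lay in 2.78% of the named tested genes.

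Ube2l6: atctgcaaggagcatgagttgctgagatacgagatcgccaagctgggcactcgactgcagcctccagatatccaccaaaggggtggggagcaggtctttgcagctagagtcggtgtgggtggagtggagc

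Other genes of that response were low in 2iL and LCDM, as Psmb8 was. For scale, 40.9% of all tested genes fell and 36.7% rose in 2iL, and 33.7% and 32.2% in LCDM. The shares were 31.9% and 21.9% in A2iL, and 37.3% and 28.1% in 2iL-F. Of 16 tested interferon-response genes, 15 fell and 1 rose in 2iL, 15 fell and 1 did not pass in LCDM, 10 fell and 1 rose in A2iL, and 8 fell and 2 rose in 2iL-F; the single rise in A2iL was lost without SL replicate 3 or either A2iL library, and it numbered 2 without SL replicate 5. The rises in 2iL-F were both lost without SL replicate 3 or 2iL-F replicate 3, and 1 was left without SL replicate 5 or 2iL-F replicate 5. They summed to 232 ± 4.92 TPM in SL, 132 ± 0.519 in 2iL-F, 126 ± 2.16 in A2iL, 36.4 ± 3.27 in 2iL and 33.3 ± 0.897 in LCDM. Isg15, the modifier that Ube2l6 carries, had 96.7 and 86.2 TPM in SL, 0.116 and 0.109 in 2iL, 33.9 and 30.8 in 2iL-F, 31.9 and 32.7 in A2iL and 2.57 and 1.98 in LCDM: in 2iL the modifier was at its lowest and the enzyme among its highest values. Uba7, the E1 that loads ISG15, had 0.541 and 1.08 TPM in SL, 0.197 and 0.172 in 2iL, 0.788 and 0.966 in 2iL-F, 1.07 and 1.21 in A2iL and 0.203 and 0.198 in LCDM, with 2iL and LCDM at 0.203 TPM or less. The fibroblast marker sums given above were also lowest in 2iL and LCDM; their part in these changes was not tested.

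Over all tested genes 40.9% fell and 36.7% rose in 2iL, and 33.7% and 32.2% in LCDM. The shares were 31.9% and 21.9% in A2iL, and 37.3% and 28.1% in 2iL-F. Among 7 tested genes of MHC class I presentation, 5 fell and 1 rose in 2iL, and 6 fell and 1 did not pass in LCDM. In A2iL and in 2iL-F 3 fell and 2 rose, not far from the shares there. The most positive change from SL in this set was 1.42, in A2iL. The rises numbered 2 in 2iL without 2iL replicate 3 and 1 in 2iL-F without 2iL-F replicate 5. Tap2, one chain of the peptide transporter into the ER, had 11.5 and 10.9 TPM in SL, 0.325 and 0.109 in 2iL, 5.65 and 5.08 in 2iL-F, 9.55 and 9.35 in A2iL and 2.26 and 2.01 in LCDM. SL was highest and 2iL lowest, with no overlap between conditions. Erap1, which trims peptides in the ER, had 5.48 and 6.22 TPM in SL, 0.506 and 0.622 in 2iL, 2.55 and 2.77 in 2iL-F, 3.43 and 3.50 in A2iL and 1.19 and 1.08 in LCDM, in the same order of conditions, and changed by -2.13 ± 0.09, adjusted p = 8.64e-08 in 2iL.

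The 22 E2 genes summed to 1120 ± 30.6 TPM in SL, 1032 ± 7.84 in LCDM, 975 ± 12.4 in 2iL-F, 957 ± 1.82 in 2iL and 905 ± 4.80 in A2iL. Of them 12 fell and 4 rose in 2iL, 17 fell and 1 rose in A2iL, 10 fell and 4 rose in LCDM, and 12 fell and 2 rose in 2iL-F. Of all tested genes, 40.9%, 31.9%, 33.7% and 37.3% fell in these media in that order, and 36.7%, 21.9%, 32.2% and 28.1% rose. The E2 falls in 2iL and LCDM are not far above those shares, and the E2 rises lie below them in each medium. In A2iL 11 fell after quantile normalisation and without SL replicate 3; the single rise there was lost without SL replicate 3 or either A2iL library, and 1 rise was left in 2iL-F without SL replicate 3.

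In SL the analysed E2 genes ranged from a mean of 4.01 TPM for Ube2v2, a partner without catalytic cysteine, to 169 for Ube2m, the main E2 for NEDD8. Of the 2 E2s for NEDD8, Ube2f fell in all 4 media and Ube2m in 3, its change in 2iL-F (-0.12 ± 0.08) not passing. Ube2m (chromosome 7, 13035120 to 13038275) was lowest in LCDM, with 107 and 113 TPM against 179 and 159.7 in SL (-0.62 ± 0.08, adjusted p = 1.22e-04). Ube2f, the second E2 for NEDD8 (chromosome 1, 91250304 to 91290337), was lowest in 2iL-F, at 4.65 and 4.71 against 8.15 and 8.09 (-0.68 ± 0.06, adjusted p = 1.64e-05). Of the NEDD8 E1 pair, Uba3 rose by 0.66 ± 0.05 and Nae1 by 0.67 ± 0.10 in 2iL. Ubb, the most abundant ubiquitin gene tested, was at 1332 to 1627 TPM in all 10 libraries. Ubb rose in 2iL-F against SL and against 2iL. Both calls were lost in some alternatives, among them quantile normalisation (0.12 and 0.07).

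Of the 4 E2s that serve protein quality control at the ER, all 4 fell in A2iL, LCDM and 2iL-F, where 31.9%, 33.7% and 37.3% of all genes fell, and 3 of 4 in 2iL, where 40.9% did. The falls of Ube2j2 in A2iL and LCDM were lost in several alternatives, among them the fits without SL replicate 3 (-0.13 and -0.07). Ube2j1 (chromosome 4, 33031416 to 33052363), a membrane-anchored E2 of ER-associated degradation, had 29 and 31.8 TPM in SL, 8.39 and 9.31 in 2iL, 15.2 and 15.8 in 2iL-F, 16.6 and 15.7 in A2iL and 12.3 and 11.7 in LCDM. SL was highest and 2iL lowest, each without overlap with any other condition. The 2iL mean was 3.44-fold below SL (-1.67 ± 0.07, adjusted p = 8.42e-08); the changes were -1.27 ± 0.07 in LCDM, -0.93 ± 0.07 in 2iL-F and -0.87 ± 0.07 in A2iL.

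Ube2g1 (chromosome 11, 72607283 to 72686481) had 45.3 and 40.7 TPM in SL, 25 and 24.9 in 2iL, 31.7 and 32.5 in 2iL-F, 31.3 and 32 in A2iL and 34.2 and 34 in LCDM, again with SL highest and 2iL lowest. Its change was -0.76 ± 0.06, adjusted p = 2.79e-06 in 2iL. Ube2g2, its paralogue and a partner of ER ligases (chromosome 10, 77622275 to 77645993), was the exception in 2iL, with 61.3 and 58 TPM against 62.1 and 60.2 in SL (-0.04 ± 0.05, not passing), but fell, with changes of -0.44 ± 0.05, -0.48 ± 0.05 and -0.40 ± 0.05 in A2iL, LCDM and 2iL-F. Exons of Ube2g2 overlap those of Gm49325. The 2iL-F libraries differed from 2iL in opposite directions for Ube2j1 (0.74 ± 0.07) and Ube2g2 (-0.36 ± 0.05).

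A pair of E2s of cell division and DNA repair are shown with their promoters, since they had unlike patterns though both act in dividing cells. Ube2t, which ubiquitinates FANCD2 in the Fanconi anaemia pathway (chromosome 1, 134962565 to 134974162), had 6.63 and 7.46 TPM in SL, 17.3 and 18.7 in 2iL, 9.0 and 8.67 in 2iL-F, 8.48 and 8.67 in A2iL and 18.6 and 19.7 in LCDM. The libraries fell into a high pair of conditions, 2iL and LCDM, and the other 3, which were at 9.0 TPM or less. It rose by 1.24 ± 0.07, adjusted p = 5.56e-07 in 2iL and 1.32 ± 0.07, adjusted p = 8.27e-07 in LCDM. Its smaller changes were 0.25 ± 0.07 in A2iL, lost in the fit of 4 libraries alone and without SL replicate 3 (0.18) or either A2iL library (0.27 and 0.24), and 0.29 ± 0.07 in 2iL-F, lost without SL replicate 3 (0.22).

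Ube2c, the E2 of the anaphase-promoting complex (APC/C) that starts ubiquitin chains on mitotic cyclins (chromosome 2, 164769898 to 164778822), had 147 and 146 TPM in SL, 141 and 148 in 2iL, 148 and 151 in 2iL-F, 123 and 124 in A2iL and 161 and 168 in LCDM. LCDM was highest and A2iL lowest without overlap, and SL, 2iL and 2iL-F lay within 141 to 151 TPM. It fell in A2iL (-0.24 ± 0.04, adjusted p = 0.00143), and LCDM was above A2iL by 0.41 ± 0.04, adjusted p = 6.92e-05; the rise in LCDM against SL (0.17 ± 0.04) was lost without LCDM replicate 5 (0.14). Exons of Ube2c overlap those of Tnnc2. As a share of Ube2c, Ube2t was 4.51% and 5.12% in SL, 11.5% to 12.7% in 2iL and LCDM, and 5.75% to 6.98% in A2iL and 2iL-F.

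The stretches before their starts (Ube2t, chr1:134962435-134962564; Ube2c, chr2:164769799-164769897; both plus strand, RefSeq GRCm38.p6) carry the CCAAT box in capitals, read as ATTGG where it lies on the other strand. Ube2t has 3 such boxes in the 130 bases shown, and Ube2c has 6 in the 250 bases searched, of which the 99 bases shown hold a pair; these are followed by 31 bases before the RefSeq start that GENCODE assigns to the gene and that are left out. CCAAT was in 40.15% of named tested genes. The cell-cycle element TTTGAA was in Ube2c, beyond the bases shown, and was not found in Ube2t.

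Ube2t: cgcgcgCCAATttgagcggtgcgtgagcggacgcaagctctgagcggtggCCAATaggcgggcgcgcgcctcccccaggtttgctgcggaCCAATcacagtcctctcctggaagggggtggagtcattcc
Ube2c: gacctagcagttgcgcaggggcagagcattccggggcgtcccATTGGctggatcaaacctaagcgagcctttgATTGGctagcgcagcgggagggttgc

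Of 15 tested cell division genes, 11 rose and 4 did not pass in LCDM, 6 rose and 3 fell in 2iL, 1 rose and 4 fell in A2iL, and 2 rose and 2 fell in 2iL-F. LCDM was above A2iL for 13 of the 15, and the other 2 did not pass. In this pair 31.1% of all tested genes were higher and 22.9% lower. That balance depended on scaling: 57.6% of all called genes were higher as deposited and 47.6% after median-of-ratios scaling. Without 2iL replicate 5, 5 fell in 2iL; in A2iL 2 rose without either 2iL library, and in 2iL-F 4 rose without either 2iL library and 1 fell without SL replicate 5 or 2iL-F replicate 3. Among 14 tested genes of the APC/C, 7 rose and 4 fell in 2iL, 1 rose and 6 fell in A2iL, 7 rose and 3 fell in LCDM, and 5 rose and 5 fell in 2iL-F. Over all tested genes 36.7% rose and 40.9% fell in 2iL, 21.9% and 31.9% in A2iL, 32.2% and 33.7% in LCDM, and 28.1% and 37.3% in 2iL-F, so that several of these counts lie near the background. In 2iL 4 rose without SL replicate 5 and 3 without 2iL replicate 5; in A2iL 2 fell without SL replicate 3 and 3 without A2iL replicate 3, and 2 rose without SL replicate 5 or either 2iL library. Cdc20, its mitotic activator, had 459.7 and 450.3 TPM in SL, 261 and 244 in 2iL, 259.6 and 267 in 2iL-F, 297 and 294 in A2iL and 367 and 380.3 in LCDM, with SL above and LCDM next. Cdc27, a core subunit, changed by -1.04 ± 0.09 in 2iL. Aurkb, a mitotic kinase, had 47 and 46.3 TPM in SL, 86.1 and 84.7 in 2iL, 57.2 and 54.8 in 2iL-F, 46.6 and 46.6 in A2iL and 82.1 and 85.2 in LCDM, with 2iL and LCDM highest, as for Ube2t. These are also the conditions with the lowest fibroblast marker sums (1015 and 1280 TPM, against 3394 to 6029 in the others), whose part in the levels of Ube2t and the cell division genes was not tested. Pttg1, the securin that is itself a substrate of the APC/C, was highest in LCDM, with 78.9 and 82.4 TPM against 29.4 and 29.3 in SL (1.43 ± 0.05, adjusted p = 7.20e-08). The sum over the cell division genes was 1583 ± 19.7 TPM in LCDM, 1310 ± 78.7 in 2iL, 1170 ± 6.83 in 2iL-F, 1154 ± 21.8 in SL and 1036 ± 11.6 in A2iL.

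Ube2a and Ube2b, close paralogues of the RAD6 family, had unlike values. Ube2a (chromosome X, 36873900 to 36884222) had 36.3 and 33.8 TPM in SL, 35.9 and 36.7 in 2iL, 33.1 and 35.6 in 2iL-F, 24.2 and 26.1 in A2iL and 30.3 and 33.9 in LCDM, with A2iL lowest (-0.47 ± 0.07, adjusted p = 7.66e-04) and no change past the threshold in the other 3 media. Ube2b (chromosome 11, 51985497 to 52000762) had 52.6 and 54.6 TPM in SL, 35.3 and 37.8 in 2iL, 40.2 and 41 in 2iL-F, 44.5 and 48.4 in A2iL and 54.6 and 53.3 in LCDM. It was lowest in 2iL (-0.54 ± 0.06, adjusted p = 2.59e-05) and 2iL-F (-0.39 ± 0.06, adjusted p = 3.24e-04), and SL and LCDM overlapped at the top. Reads that fit both paralogues could have been divided between them, so both values are uncertain.

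Of the 9 remaining ubiquitin E2s, Ube2e1 changed most (chromosome 14, 18282722 to 18331859), with 22.4 and 23.4 TPM in SL, 7.40 and 8.34 in 2iL, 9.65 and 9.40 in 2iL-F, 16.2 and 18.5 in A2iL and 15.9 and 15.6 in LCDM. The SL libraries were the highest and 2iL and 2iL-F the lowest without overlap. It changed by -1.43 ± 0.08, adjusted p = 3.60e-07 in 2iL and -1.18 ± 0.08, adjusted p = 2.49e-06 in 2iL-F, and by -0.38 ± 0.08 in A2iL and -0.51 ± 0.08 in LCDM. Its exons overlap those of Nkiras1. The related Ube2e3 (chromosome 2, 78868124 to 78921293) fell in 2iL (-0.63 ± 0.10).

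Ube2o, a large hybrid of E2 and E3 that clears unassembled proteins (chromosome 11, 116537740 to 116581447), and Ube2q2 (chromosome 9, 55148854 to 55207529) were highest in LCDM. Ube2o had 44.7 and 43 TPM in SL, 54.4 and 51.3 in 2iL, 43.2 and 40.7 in 2iL-F, 38.6 and 37.3 in A2iL and 70.5 and 70.2 in LCDM. LCDM stood clear of all other libraries and 2iL came second. The changes of Ube2o were 0.67 ± 0.05, adjusted p = 6.73e-06 in LCDM and 0.26 ± 0.05, adjusted p = 0.00142 in 2iL. Ube2q2 had 19.3 and 19.5 TPM in SL, 22.3 and 24.9 in 2iL, 19.3 and 20.2 in 2iL-F, 15.8 and 17.2 in A2iL and 32.9 and 28.9 in LCDM, again with LCDM highest, 2iL second and A2iL lowest. It rose by 0.65 ± 0.08, adjusted p = 1.19e-04 in LCDM, and its change of 0.27 ± 0.08 in 2iL was lost without SL replicate 3 (0.27) or 2iL replicate 5 (0.20).

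**Figure D4:**
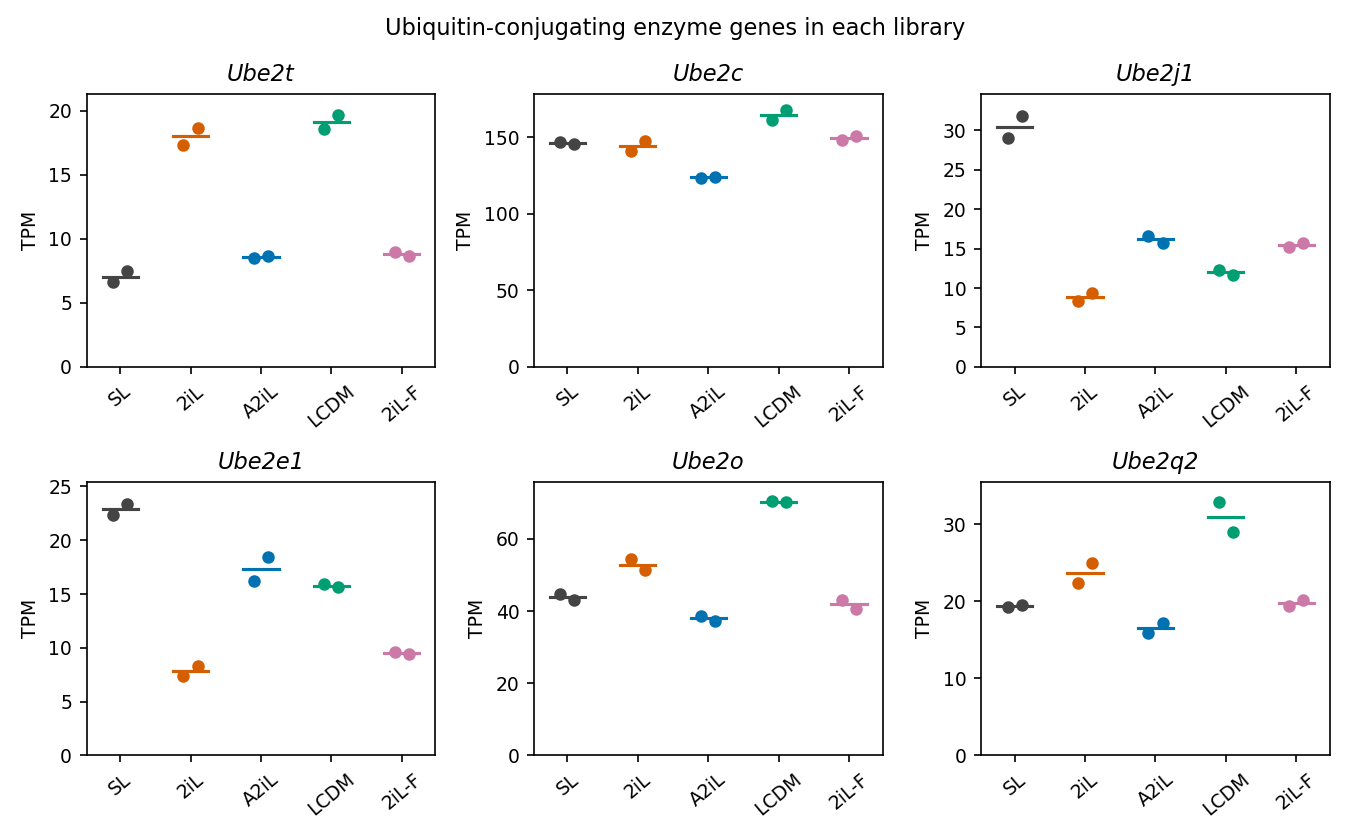
TPM (y axis, from 0) of 6 E2 genes in each library, by condition (x axis); points are libraries and bars the mean of 2. Ube2t is high in 2iL and LCDM, Ube2e1 is lowest in 2iL and 2iL-F, Ube2j1 is highest in SL, and Ube2o and Ube2q2 are highest in LCDM.

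Ube2k, which extends ubiquitin chains (chromosome 5, 65537233 to 65598988), fell in 2iL, A2iL and 2iL-F, with changes of -0.42 ± 0.06, -0.59 ± 0.06 and -0.61 ± 0.06, and had 41.8 and 43.3 TPM in LCDM against 48.4 and 46.5 in SL (-0.15 ± 0.06, not passing). Ube2r2, an E2 of cullin-RING ligases (chromosome 4, 41135743 to 41193380), changed by -0.39 ± 0.05, -0.44 ± 0.05 and -0.25 ± 0.05 in the same media. Ube2z, which takes ubiquitin from the E1 Uba6, was at 113 to 135 TPM in all 10 libraries, A2iL being lowest, and Uba6 itself fell in 2iL (-0.73 ± 0.13), with 9.33 and 13.3 TPM against 19.3 and 18.9 in SL. Ube2w, which targets protein N-termini, did not pass in any comparison.

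Within the serum-free media, both labels of the 2iL medium could be set side by side. In 2iL-F against 2iL, 15 members were higher and 15 lower, where 61.7% of all genes were called (29.2% higher, 32.5% lower). Without either 2iL-F library 9 were higher, and 8 in a fit of these 4 libraries alone. The largest rises were those of Psmb8, listed at 0 in 2iL (adjusted p = 3.35e-06), Ube2j1 (0.74 ± 0.07) and Psmd6 (0.55 ± 0.08), and the largest falls those of Ube2t (-0.95 ± 0.07, adjusted p = 7.73e-06) and Psmg3 (-0.67 ± 0.10). All 29 fibroblast markers were higher in 2iL-F than in 2iL, and 15 of 16 interferon-response genes; their part in the member changes was not tested.

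In LCDM against A2iL, 26 members were higher and 7 lower, where 54% of all genes were called (31.1% higher, 22.9% lower). The balance depended on scaling: median-of-ratios scaling gave 16 higher and 13 lower, with 47.6% of all called genes higher in place of 57.6%, and quantile normalisation 19 higher and 11 lower. Without LCDM replicate 5, 17 were higher, and without A2iL replicate 3, 4 were lower. The 26S subunits, at 11 higher and 2 lower as deposited, were at 3 and 4 after median-of-ratios scaling, so no direction of the 26S genes is given for this pair. The members with the largest rises were Ube2t (1.07 ± 0.07, adjusted p = 5.87e-06), Ube2q2 (0.87 ± 0.08, adjusted p = 3.63e-05) and Ube2o (0.87 ± 0.05, adjusted p = 2.76e-06), and those with the largest falls were Psmb8 (-1.96 ± 0.14, adjusted p = 7.08e-06) and Ube2l6, given above. All 5 E2s of cell division and DNA repair were higher in LCDM, 3 of them without LCDM replicate 3.

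A further contrast, of the media with PD0325901 (2iL and 2iL-F) against the other serum-free media (A2iL and LCDM), was chosen after these values were seen and is a description. The other media carry agents of their own, so PD0325901 and those agents cannot be told apart. Of the 61 members 32 were lower and 8 higher, where 63.9% of all genes were called (34.5% lower, 29.4% higher). Of the 29 fibroblast markers 26 were lower and 3 higher in this contrast, and their part in the member changes was not tested. Both PD0325901 media lay wholly above both others for 1 member, Ube2l6, which is 1.6% of the 61, against 12.7% of all genes. They lay wholly below for 13, which is 21.3% of the 61, against 12.9% of all genes. Among the 13 were Ube2e1 (-0.86 ± 0.05), Ube2b (-0.37 ± 0.04), Psma6 (-0.25 ± 0.05) and Psmd14 (-0.37 ± 0.08).

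The 2 genes matched by name only do not encode the proteins their symbols recall. Psmc3ip, a meiotic recombination factor (chromosome 11, 101091823 to 101095436), had 39.9 and 36.9 TPM in SL, 38.8 and 41.8 in 2iL, 38.2 and 39.9 in 2iL-F, 32.4 and 33.6 in A2iL and 44 and 44.7 in LCDM, with A2iL lowest. Its exons overlap those of Mlx. Ube2cbp, now called Ube3d, an E3-type protein (chromosome 9, 86307306 to 86464950), had 5.99 and 6.93 TPM in SL, 3.53 and 4.33 in 2iL, 4.19 and 5.95 in 2iL-F, 3.36 and 3.62 in A2iL and 3.37 and 3.402 in LCDM. Its SL libraries were above all others, the lower of them closely above 1 of the 2iL-F libraries, and it fell in 2iL (-0.60 ± 0.14), A2iL (-0.73 ± 0.14) and LCDM (-0.76 ± 0.14).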

How the data were processed

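RNA-seq was done on 10 libraries, 2 for each of 5 culture conditions, with RNA from a Qiagen kit and NEBNext Ultra libraries, per the labels' protocols. The authors deposited 1 table of TPM, and per the submitters' processing notes Bowtie2, RSEM, DESeq2 and R 3.4.2 were used with mm10. The aligner's settings, the annotation and the use of strand were not stated. In each library, the listed lines of the deposited TPM table add up to 71.0% to 73.0% of the TPM total. TPM hold no read counts, so depth is unknown and no counting interval is given.

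In the lower lines of the table the symbols stand apart from their values: of 126 genes from broadly expressed families there, 46.8% had 5 TPM beside their symbol and 86.5% had it 1 line below, against 98.1% of 211 beside their symbol in the upper part. Names were taken from the upper part only, while all lines entered the fits. The 14578 genes that reached 1 TPM in 2 or more libraries were fitted on log2(TPM + 1) with limma 3.58.1 in R 4.3.3 (mean per condition, empirical Bayes with trend, residual degrees of freedom 5). Tests were two-sided, and p-values were adjusted by Benjamini-Hochberg over all 14578 genes with a threshold of 0.05. Tables and plots were made in Python 3.11.15 with pandas 2.3.3, numpy 2.4.6 and matplotlib 3.10.9, and the fit was tested on simulated data.

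The members, classes and gene lists were chosen with earlier results of these data known. Any member could be named. A few genes that enter the counts are not reported by name here. From a pathway list the 4 genes with the largest called changes could be named; Ubb and Uba7 were added after their values were seen. The replicate numbers 3 and 5 are not explained in the labels, and over 10 pairs of conditions the deviations of same-numbered libraries correlated at -0.13 to 0.07, so they were not taken as pairs. The alternatives were another pseudocount (0.1), other filters on low TPM, median-of-ratios scaling, quantile normalisation, robust variance estimates, the replicate block, the compared libraries alone, and each library left out; a fit of named lines only and a fit of SL, A2iL and LCDM only were chosen after seeing the data. Gene positions are from GENCODE and promoter sequences from RefSeq, both on GRCm38. Of the 61 members, 15 have exons that overlap those of another gene, 11 of them a coding gene.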

Additional observations from a re-analysis of the deposited data

How the results depend on the processing

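No called change of the 61 members turned its direction: of 5166 values under the alternatives, 4776 kept the call and 390 lost it. In A2iL against SL, 4 members rose after median-of-ratios scaling and 4 after quantile normalisation, 1 with the compared libraries alone, and 27 fell after quantile normalisation, against 2 and 43. In 2iL-F against 2iL, 8 were higher with the compared libraries alone, against 15. In LCDM against A2iL, median-of-ratios scaling gave 16 higher and 13 lower and quantile normalisation 11 lower, against 26 and 7. With each library left out in turn, counts of members higher and lower ranged from 5 to 8 and 33 to 40 (2iL against SL), 1 to 3 and 29 to 47 (A2iL), 6 to 10 and 20 to 33 (LCDM), 2 to 4 and 33 to 40 (2iL-F), 9 to 18 and 11 to 14 (2iL-F against 2iL), and 17 to 27 and 4 to 8 (LCDM against A2iL). For the contrast of PD0325901 media these were 6 to 9 and 28 to 38, and for any difference among the 5 conditions 52 to 60. With the replicate block, the same counts were 6 and 38, 2 and 41, 9 and 24, 4 and 39, 15 and 14, 25 and 7, and 8 and 30, and 55 members differed among the conditions; 10 of 268 calls were lost. The causes were not tested. With 2 libraries a condition and TPM without counts, low genes such as Psmb8 and Ube2v2 carry an unknown counting error. No value with the compared libraries alone was computed for the contrast of PD0325901 media, which has 8 libraries.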
